A study of Rattus norvegicus with 6 samples.

Results

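The 3 genes described here encode the main fibrillar collagen chains of the gut wall: Col1a1 and Col1a2 give the alpha-1 and alpha-2 chains of type I collagen, and Col3a1 gives the single chain of type III collagen. They were chosen by Ensembl identifier (ENSRNOG00000003897, ENSRNOG00000011292 and ENSRNOG00000003357) and are 3 of the 32623 genes in the deposited count table. That table holds identifiers without symbols or positions. The symbols therefore come from the rule that chose the genes, and the reference gene table used here, with 0 Ensembl identifiers among its 47357 genes, could not be used to check them.

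The tissue was full-thickness esophagus of wild type male Sprague-Dawley rats, an outbred strain, aged 8 to 10 weeks. Control rats (n = 3) were untreated. The other group (n = 3), here called injured, had its esophagus rubbed locally by a 3D-printed device put in through the mouth for 8 to 10 friction cycles. Esophagus was taken on day 28 from both groups, and each library came from 1 animal. The injury is local whereas the sample is the whole thickness of the organ, and the labels do not give how much of a sample was injured wall. No sham passage of the device is described for the controls.

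Type I collagen forms thick, stiff fibrils and is normally a trimer in which alpha-1 chains outnumber the alpha-2 chain. Type III collagen is a trimer of identical chains, forms thinner fibrils that often mix with type I, and is abundant in distensible organs and in early scar. Both are made mainly by fibroblasts and myofibroblasts, and the proportion of type III to type I is a common description of scar maturity. In bulk tissue, a larger number of cells that make collagen and more collagen RNA per cell cannot be told apart.

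All 3 genes had higher mean transcript levels in injured than in control esophagus, by 1.84 to 1.99-fold, but none passed the test without a pairing of the animals by replicate number. Of the 3 genes, 0 were called at an adjusted p under 0.05 (edgeR quasi-likelihood test), where 0.711% of all 14481 tested genes were called higher. At an unadjusted p under 0.05, 2 of the 3 were higher in injured animals, where 9.98% of all tested genes were. That count fell to 1 without control replicate 1 and to 0 without control replicate 2, injured replicate 2 or injured replicate 3. It stayed at 2 without injured replicate 1 and rose to 3 without control replicate 3. It was also 3 with DESeq2 and with the edgeR replicate block, fits described next. At an adjusted p under 0.05 these fits called more genes in all, 1385 and 546, against 196 for edgeR without the block. The shares of all genes at the unadjusted threshold are not given for these fits or for those with 1 library left out. The changes in the count of collagens are therefore not read as a result about the collagens. DESeq2, a second count test, also called 0 of the 3, where 3.66% of 20471 genes were called higher. Limma-voom, a log-scale test, called 0 of the 3, where 0.380% of the 14481 genes were called higher. The DESeq2 shares are over more genes because the count filter was not applied. They are over all genes with an unadjusted p, and any that DESeq2 left without an adjusted p count as not called. They are therefore not directly comparable with the others. With the replicate number as a block, edgeR called 0 of the 3, where 1.98% of all genes were called higher. DESeq2 with the block, a fit added after the data were seen, called all 3, where 4.68% of 20497 genes were called higher. The median log2 fold change over all tested genes was -0.01. Without the block, the intervals of the 3 genes ran from little or no difference to more than a 3-fold difference.

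Col1a1, the alpha-1 chain of type I collagen, measured 591, 1056 and 1872 CPM in the controls (replicates 1, 2 and 3). The injured animals had 1314, 3014 and 2144 CPM, in the same replicate order. CPM is the read count scaled to a common library size by TMM, and it is not corrected for gene length. The groups overlapped, since injured replicate 1 lay below control replicate 3. Control esophagus averaged 1173 ± 649 CPM and injured esophagus 2158 ± 850 CPM (SD, n = 3). Injured minus control came to 0.88 ± 0.46 on the log2 scale (± standard error; edgeR, adjusted p = 0.32). The 95% interval ran from 0.86-fold to 3.95-fold, so neither a small decrease nor a near 4-fold increase lies outside it.

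Col3a1, the chain of type III collagen, measured 1429, 2847 and 4337 CPM in the controls. In the injured animals it measured 4551, 6700 and 5862 CPM. It was the 1 gene of the 3 in which every injured animal lay above every control, as was the case in 13.5% of all tested genes. The gap was narrow: the lowest injured animal exceeded the highest control by less than the distance between any 2 controls. Control esophagus averaged 2871 ± 1454 CPM and injured esophagus 5705 ± 1083 CPM (SD, n = 3). The log2 difference was 0.99 ± 0.39 (standard error; edgeR, adjusted p = 0.21), and the 95% interval ran from 1.04-fold to 3.78-fold. Among all tested genes Col3a1 ranked 38 by mean CPM in controls and 15 in injured animals, and Col1a1 ranked 83 and 41.

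Col1a2, the alpha-2 chain of type I collagen, was counted far less. The controls gave 253, 360 and 438 Col1a2 reads, where Col1a1 had 9843, 18906 and 25956. The injured animals gave 535, 887 and 688 Col1a2 reads, where Col1a1 had 24670, 49626 and 36613. In CPM, Col1a2 measured 15.2, 20.1 and 31.6 for the controls, then 28.5, 53.9 and 40.3 for the injured animals. As for Col1a1, injured replicate 1 lay below control replicate 3, so the groups overlapped. Control esophagus averaged 22.3 ± 8.4 CPM and injured esophagus 40.9 ± 12.7 CPM (SD, n = 3). The log2 difference was 0.88 ± 0.33 (standard error; edgeR, adjusted p = 0.19), and the 95% interval ran from 1.07-fold to 3.15-fold.

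By mean CPM over all libraries, a scale not corrected for length, Col1a2 ranked 5129 of the tested genes, whereas Col1a1 ranked 46 and Col3a1 ranked 25. Partner chains of the same protein thus stood far apart in read counts in every library. How the authors' gene model for ENSRNOG00000011292 was drawn, and how reads shared with an overlapping gene or another copy were counted, is not given in the sources used here. The part of these in the low count was not tested. The Col1a2 values are therefore used below for their differences between animals, and not as a level of the alpha-2 transcript.

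**Figure D1:**
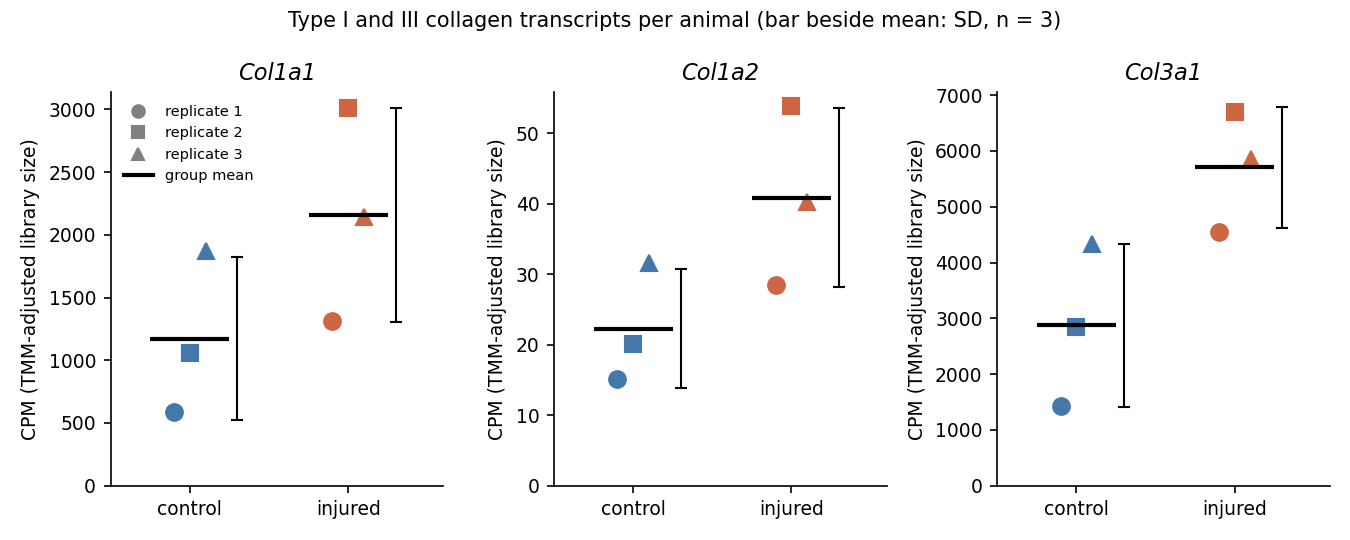
Transcript level in CPM (y axis, linear, from 0) of Col1a1, Col1a2 and Col3a1 in each control and injured animal, with the group mean as a black bar and the SD beside it (n = 3). Points of the groups overlap for Col1a1 and Col1a2 and are separate for Col3a1, and the Col1a2 axis ends below 60 CPM.

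The animals fell into nearly the same order for each gene. Control replicate 1 was the lowest and injured replicate 2 the highest for all 3 genes, with control replicate 2 second from the bottom and injured replicate 3 second from the top. The order differed only in the middle, where injured replicate 1 lay below control replicate 3 for Col1a1 and Col1a2 and above it for Col3a1. The same-numbered control and injured animals differed in the same direction for every gene and number. The labels do not describe them as pairs, and another matching can reverse this. Injured replicate 1 against control replicate 3 went the other way for Col1a1 and Col1a2. The share of all genes with the same direction at every number was not worked out. Injured over control was 2.23, 2.85 and 1.15-fold for Col1a1 at numbers 1 to 3. It was 1.88, 2.68 and 1.28-fold for Col1a2 and 3.18, 2.35 and 1.35-fold for Col3a1. The smallest fold of each gene was that of number 3, which holds the highest control.

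The spread among controls was wide for these genes. Control replicate 3 exceeded control replicate 1 by 3.17-fold for Col1a1, 3.03-fold for Col3a1 and 2.08-fold for Col1a2. The SD of log2 CPM among controls was 0.83 for Col1a1, larger than in 89.2% of tested genes. It was 0.81 for Col3a1 and 0.53 for Col1a2, larger than in 88.6% and 77.5% of genes, and the median gene had 0.25. On the fold scale, untreated esophagus thus spanned a range larger than the difference between the group means for each of the 3 genes. In CPM this did not hold for Col1a2, with controls from 15.2 to 31.6 and group means of 22.3 and 40.9.

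Among injured animals the spread was smaller for Col3a1 than for the type I chains. The highest injured animal exceeded the lowest by 1.47-fold for Col3a1, 2.29-fold for Col1a1 and 1.89-fold for Col1a2. The SD of log2 CPM was 0.28 for Col3a1, 0.60 for Col1a1 and 0.46 for Col1a2, against 0.19 for the median gene. The difference in spread between the genes was not tested.

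**Figure D2:**
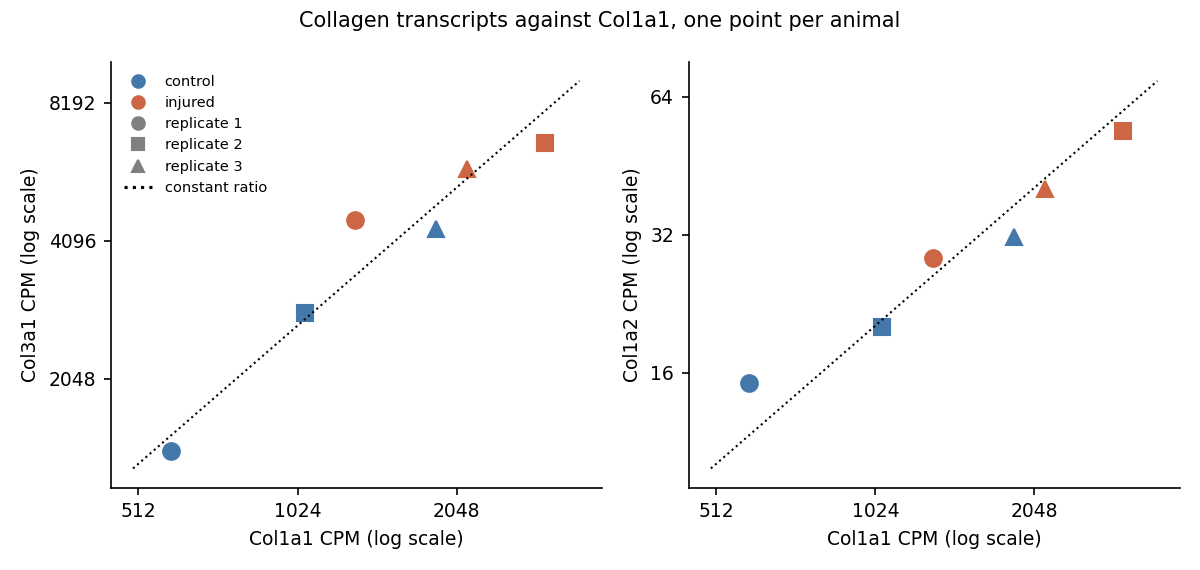
Col3a1 (left) and Col1a2 (right) against Col1a1, each in CPM on log axes, with one point per animal and a dotted line of constant ratio. The points lie along the lines from control replicate 1 at the lower left to injured replicate 2 at the upper right. In the left panel injured replicate 1 lies farthest from the line, above it.

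The ratio between the chains compares them within a library, so that library size cancels. The ratios are of read counts and not per length, since transcript lengths of the authors' build were not available here. A length correction would multiply a ratio by the same factor in every library. The groups were compared for 4 ratios by the exact permutation test (two-sided, 20 assignments of 3 against 3 animals). Its smallest possible p is 0.1, so it could not call a ratio at the threshold used for the genes, whatever the values. No conclusion is drawn from the lack of a call. The values of the groups overlapped for each of the 4 ratios.

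The ratio of Col3a1 to Col1a1, type III against the main type I chain, was 2.42, 2.70 and 2.32 among the controls. Among the injured animals it was 3.46, 2.22 and 2.73. The injured animals thus held both the highest and the lowest ratio, and the groups overlapped. Controls averaged 2.48 ± 0.20 and injured animals 2.81 ± 0.62 (SD, n = 3). On the log2 scale the groups differed by 0.16, or 1.12-fold (exact permutation p = 0.60, adjusted over the 4 ratios p = 0.80). The difference rested on injured replicate 1, and without that animal it was -0.004.

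Counting error was small beside these differences between animals. The exact 95% counting interval of the ratio in injured replicate 1 was 3.41 to 3.51, and that of the next highest library, injured replicate 3, was 2.70 to 2.77. Such intervals cover counting error only, since reads without molecular identifiers are not independent molecules. Injured replicate 1 lay farther below the injured mean for the type I genes than for Col3a1. Its deviation was -0.63 for Col1a1, -0.47 for Col1a2 and -0.31 for Col3a1 on the log2 scale.

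Set against both type I chains summed, Col3a1 gave nearly the same values, because Col1a2 adds few reads. This ratio averaged 2.43 ± 0.19 for controls and 2.75 ± 0.61 for injured animals (SD, n = 3; exact permutation p = 0.60, adjusted p = 0.80). Without injured replicate 1 its log2 difference was -0.00098. Type III reads outnumbered type I reads in all 6 libraries, at a ratio of at least 2.18, which is a ratio of reads and not of transcripts. The type I sum includes the low Col1a2 count, whose cause was not tested. A fuller count of Col1a2 would lower this ratio.

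The ratio of Col1a1 to Col1a2, the chains of type I collagen, was 38.9, 52.5 and 59.3 among the controls. Among the injured animals it was 46.1, 55.9 and 53.2. All injured values lay within the range of the controls. Controls averaged 50.2 ± 10.4 and injured animals 51.8 ± 5.1 (SD, n = 3), a log2 difference of 0.06 (exact permutation p = 0.80, adjusted p = 0.80). The ratio was lowest in the lowest animal of each group, replicate 1. In control replicate 1 the counting interval was 34.3 to 44.3, below the interval of 47.3 to 58.5 in control replicate 2, so this difference between animals exceeded counting error. Without control replicate 1 the log2 difference between the groups was -0.11.

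The ratio of Col3a1 to Col1a2 was 94.1, 142 and 137 among the controls, and 160, 124 and 146 among the injured animals. Control replicate 1 was low and the remaining libraries overlapped. Controls averaged 124 ± 26 and injured animals 143 ± 18 (SD, n = 3), a log2 difference of 0.22 (exact permutation p = 0.40, adjusted p = 0.80). The 4 ratios share members and are not independent of each other.

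**Figure D3:**
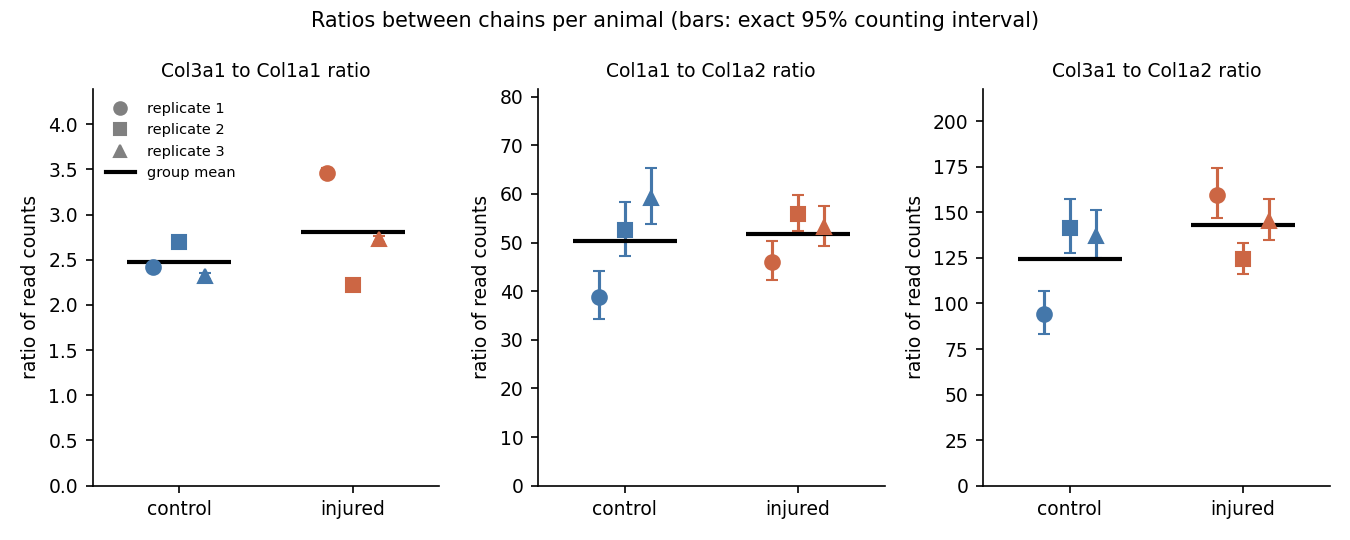
Ratio of read counts (y axis, linear, from 0) for each pair of genes in each control and injured animal, with the exact 95% counting interval as a bar and the group mean as a black line. The groups overlap in each panel. Injured replicate 1 has the highest Col3a1 to Col1a1 ratio, 3.46, and control replicate 1 the lowest ratios to Col1a2.

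Among controls the ratio of Col3a1 to Col1a1 varied less than either gene. Its log2 value had an SD of 0.11, against 0.81 and 0.83 for the genes themselves. Over all 6 libraries this ratio spanned 1.56-fold and that of Col1a1 to Col1a2 spanned 1.52-fold, whereas Col1a1 alone spanned more than 3-fold within the controls. Among the injured animals the SD of this ratio, 0.32, lay between the 0.28 of Col3a1 and the 0.60 of Col1a1.

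Together the 3 genes took 0.196%, 0.385% and 0.610% of the counts of the control libraries. Of the injured libraries they took 0.602%, 1.01% and 0.823%. The first injured animal was just below control replicate 3, so the groups overlapped by this pair. Their summed level averaged 4066 ± 2107 CPM for controls and 7903 ± 1941 CPM for injured animals (SD, n = 3), 2.10-fold higher on the log scale (exact permutation p = 0.20).

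The size of the difference between the groups depended on which animal was left out, and its sign did not. For Col1a1 the log2 fold change ranged from 0.55 without control replicate 1 to 1.40 without control replicate 3. For Col3a1 it ranged from 0.67 to 1.43 for the same libraries. For Col1a2 it ranged from 0.63 without injured replicate 2 to 1.22 without control replicate 3. None of the 3 genes passed the test in any of these fits (edgeR, adjusted p from 0.14 to 0.60). Few genes passed in several of them. Over all genes, those called higher numbered 134, 34 and 9 without control replicates 1, 2 and 3. Without injured replicates 1, 2 and 3 they numbered 46, 9 and 2. The lack of a call was thus not particular to the collagens.

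The call also depended on the combination of tool and pairing by replicate number. No label says what a number stands for. With the replicate number as a block, the 3 genes stayed uncalled in edgeR (adjusted p = 0.10 for Col1a1, 0.084 for Col1a2 and 0.073 for Col3a1). The block narrowed the standard error of the log2 fold change from 0.46 to 0.26 for Col1a1, from 0.33 to 0.22 for Col1a2 and from 0.39 to 0.25 for Col3a1. All 3 passed in DESeq2 with the block (adjusted p = 0.0025 for Col1a1, 0.0081 for Col1a2 and 8.58e-05 for Col3a1). That fit was chosen after the other results were seen, and it gave log2 fold changes of 0.97, 0.90 and 1.13. Of 17 alternative settings, 16 called 0 of the 3 genes. These include the fits with 1 library left out, which called 2 to 134 of all genes higher.

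**Figure D4:**
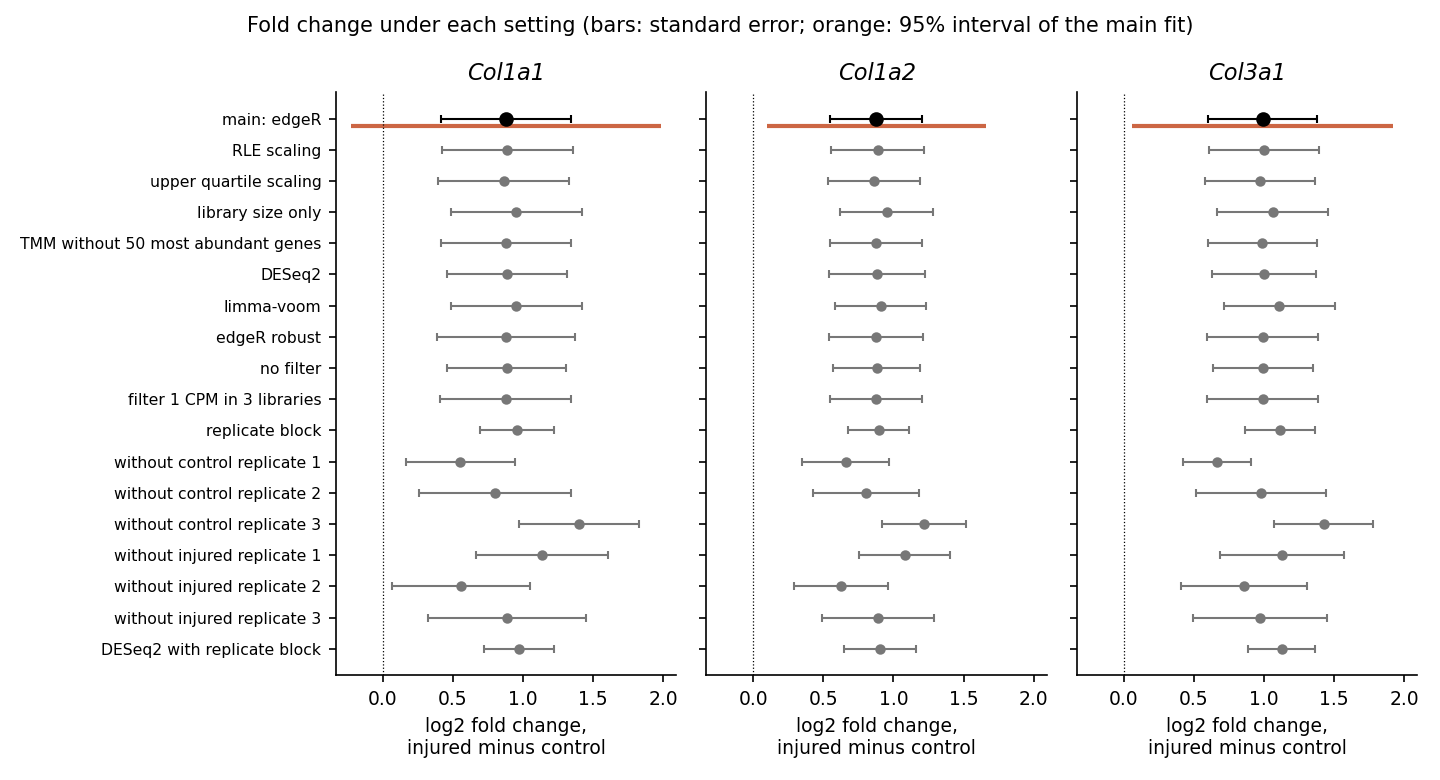
Log2 fold change of each gene, injured minus control, under each setting, with the standard error as a bar and the 95% interval of the edgeR fit in orange. All values lie to the right of 0, between 0.55 and 1.43. The orange interval of Col1a1 includes 0.

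Among 9261 tested genes with at least 10 CPM on average, the profiles over the 6 libraries most like the mean profile of the 3 collagens were sought by the root-mean-square difference of centred log2 CPM. The collagens themselves differed from that mean, which includes them, by 0.11 (Col1a1), 0.13 (Col1a2) and 0.14 (Col3a1). By closeness to it they ranked 1, 7 and 8, so other genes lay nearer than Col1a2 and Col3a1. The nearest others were ENSRNOG00000018659 and ENSRNOG00000008749, each at 0.12, which the files do not pair with a symbol. ENSRNOG00000018659 measured 12.4, 18.1 and 29.6 CPM among controls, then 26.5, 46.5 and 32.0 CPM among injured animals. ENSRNOG00000008749 measured 58.6, 120 and 197 CPM among controls, then 176, 282 and 241 CPM among injured animals. Both had the library order of Col1a1, and neither passed the test (edgeR, adjusted p = 0.25 and 0.27). Since they were chosen by their profile over these same libraries, a like order and a like test result follow from the choice.

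Of the 3 genes, 1 had an entry in the RefSeq promoter table (build GRCr8), Col1a2. Its upstream region is shown for that reason alone. The stretch is chr4:33518307-33518407 on the plus strand, and it begins 250 bases before the RefSeq transcript start. Capitals mark 3 motifs from left to right. The first is CCAAT read on the opposite strand, 221 bases before the start. The second is TATAAA, 170 bases before the start, and the third is CAGAC read on the opposite strand, 156 bases before it.
Col1a2: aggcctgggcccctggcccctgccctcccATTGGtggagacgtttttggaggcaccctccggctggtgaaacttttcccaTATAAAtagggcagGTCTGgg

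The motifs were searched on both strands of the 250 bases before the start. As background, TATAAA is the core of the TATA box, CCAAT is bound by the NF-Y complex, and CAGAC holds the short CAGA element that SMAD proteins of the TGF-beta pathway can bind. They do not overlap in this stretch, and a further CAGAC on the opposite strand lay 23 bases before the start. Of 33469 promoters, 12.9% held TATAAA on either strand, 34.0% CCAAT and 42.9% CAGAC, so a match to the last 2 is common. These are letter matches and no measure of binding. All distances are from the RefSeq start, and whether transcripts in this tissue begin there was not tested.

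Library totals ranged from 14181903 to 18376578 counts. The labelled tissue and the cells in it could not be checked against marker genes, since only the 3 collagen identifiers are paired with symbols. For the same reason the lists of other collagens, of collagen processing and degradation genes and of the TGF-beta pathway were not analysed here. Whether muscle, epithelium or immune cells differed in amount alongside collagen was not tested.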

How the data were processed

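Polyadenylated RNA of 6 rat esophagi was sequenced, 1 library per animal. The authors deposited raw whole-number counts per Ensembl gene. Per the submitters' processing notes, the build was Rnor_6.0 and the tools included HTSeq 0.6.1 and HISAT2 2.2.1, beside fastp 0.24.1 and DESeq2 1.50.2. The strand setting, annotation release and handling of shared reads: not given in the sources used here.

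Genes were filtered with filterByExpr (minimum count 10, minimum total 15) and scaled by TMM. Injured was compared with control by the quasi-likelihood test of edgeR 4.0.16 in R 4.3.3, with Benjamini-Hochberg adjustment over all 14481 genes. Standard errors came from the log2 fold change over the square root of F, and the 95% interval used the t quantile. Ratios of raw counts were tested by exact permutation, with exact (Clopper-Pearson) 95% counting intervals (scipy 1.17.1). The edgeR tests with and without the block, and the unblocked DESeq2 and limma-voom tests, were run on simulated counts, with the outcome not reported here. Alternatives were other scalings, filters, DESeq2 1.42.0, limma-voom 3.58.1, robust edgeR, leaving out each library, and the replicate number as a block.

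Libraries sharing a number deviated together from their group means across genes (correlations 0.37, 0.37 and 0.10, or 0.104 for number 3, against a limit of 0.1), so they were treated as pairable. This comes from the data, and the labels describe different animals. Correlations between libraries of different numbers were not computed, so there is no level to compare these with. The fits with the block therefore rest on a pairing chosen from the same data. The named genes are the 3 collagens and the 2 genes of nearest profile. Members and lists were chosen with earlier results of these data known. The symbol-based lists could not be applied.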

Additional observations from a re-analysis of the deposited data

How the results depend on the processing

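The log2 fold changes of the 3 collagens stayed above 0 in all 17 alternatives. Apart from the fits that left out 1 library, they ranged from 0.86 to 0.97 for Col1a1, 0.86 to 0.95 for Col1a2 and 0.97 to 1.13 for Col3a1. Calls changed in DESeq2 with the replicate block, added after the data were seen (log2 fold changes 0.97, 0.90 and 1.13). The number of genes called in all, 196, was 1385 with DESeq2, 124 with limma-voom, 546 with the replicate block, 1591 with DESeq2 and the block, and 2 to 334 with 1 library left out. The causes of these shifts were not tested. The edgeR block changed no collagen call. For the ratios, pairing by number cannot change the difference of means, so it bears only on the test (exact sign-flip p = 0.75 for each of the 4, where 0.25 is the smallest possible). With 1 library left out, log2 fold changes ranged from 0.55 to 1.40 for Col1a1, 0.63 to 1.22 for Col1a2 and 0.67 to 1.43 for Col3a1. The summed level differed by 0.65 to 1.45 on the log2 scale. The ratio of Col3a1 to Col1a1 differed by -0.0041 to 0.32, that of Col3a1 to the type I sum by -0.00098 to 0.32, that of Col1a1 to Col1a2 by -0.11 to 0.19 and that of Col3a1 to Col1a2 by 0.031 to 0.33. With 3 animals a group the exact tests cannot reach 0.05, so the lack of a call does not show that the groups were alike.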
